A study of Cucumis sativus with 9 samples.

Results

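The genes for the light reactions and the carbon-fixing enzyme of the cucumber leaf were collected by their annotated protein families. A gene was taken when its description held the words Chlorophyll A-B binding, photosystem, PsbP, Oxygen evolving enhancer or Ribulose bisphosphate carboxylase, in any case, and 61 of the 24880 genes in the tables did. The words gave 20 genes of chlorophyll A-B binding proteins, 10 photosystem I (PSI) genes and 14 photosystem II (PSII) genes. The first are called antenna genes here, by that family description alone. The words also gave 14 genes of the PsbP and PsbQ families, called oxygen evolution genes here, and 3 Rubisco genes. The rule reads the descriptions and no expression value.

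In plants, antenna proteins hold chlorophyll in the thylakoid membrane and pass absorbed light energy to the reaction centres of PSI and PSII. PSII takes electrons from water at a manganese cluster that PsbO, PsbP and PsbQ cover on the lumen side, PSI lifts the electrons to ferredoxin, and Rubisco binds carbon dioxide in the stroma. The antenna proteins, many small subunits and the Rubisco small chain are encoded in the nucleus, whereas the reaction centre cores and the Rubisco large chain are encoded in the plastid. Messages of antenna genes follow the hour of the day in many plants.

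Leaves of 3-week-old seedlings of the inbred line 9930 ('Chinese long'), the line of the cucumber reference genome, were sampled after 0 h (HT0h, control), 3 h (HT3h) and 6 h (HT6h) at 42 °C, and RNA of 3 replicates per time was sequenced. All groups share the genotype, the age and growth at 25 °C by day and 18 °C by night with 16 h of light and 8 h of dark. The study looked for genes that respond to heat. No unheated leaves of 3 h or 6 h are among the samples, so that heat and the hour of sampling cannot be told apart, and in whole leaves fewer cells of a type and less RNA per cell cannot be told apart either.

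The values are FPKM, fragments divided by gene length and by a depth value for each library, with 18972139 to 22942239 fragments on genes per library. The depth recovered from the values was below the fragments on genes in all HT0h libraries, HT3h_1 and HT3h_2. It is therefore not taken as the number of sequenced fragments, and how it was set was not tested. Divided by fragments on genes, it was larger in every HT6h library than in every HT0h library. This lowers FPKM in HT6h against HT0h, relative to shares of fragments. HT3h_2 and HT6h_2 were removed by the authors for poor uniformity. The tests below therefore use the other 7 libraries, with 2 per heated group, and the values of all 9 are printed. Log2 fold changes are on the log2(FPKM + 0.1) scale, tested with limma over the 19416 genes with a mean of 0.1 FPKM or more in those 7 libraries, and genes were called where the p-value adjusted by Benjamini and Hochberg's method over all of them was at most 0.05 and the log2 fold change was at least 1 in size. Of the 61 genes, 58 passed the filter, and the other 3 (CsaV3_2G025120, CsaV3_5G028980 and CsaV3_2G001270, all described as PSII proteins) were listed at 0 FPKM in every library.

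The leaf label was checked against these genes, which mark green leaf cells. Of the 61 genes, 27 stood among the 100 genes with the highest mean FPKM, 14 of them antenna genes, and 24 averaged more than 1000 FPKM. They took 11.1%, 12.9% and 11.7% of all fragments on genes in the HT0h libraries 1 to 3, 14.3%, 12.0% and 6.07% in the HT3h libraries, and 7.72%, 9.52% and 5.07% in the HT6h libraries. The third library of each heated time was the lowest of its group.

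The low position of HT3h_3 and HT6h_3 was seen in the sum of every class. All 58 tested members were lower in HT3h_3 than in HT3h_1, with a median ratio of 0.394, whereas 49.7% of all tested genes were. In HT6h_3 against HT6h_1, 53 of the 58 were lower, with a median ratio of 0.624, against 50.5% of all genes. The summed FPKM over all genes was also lowest in these libraries, with 573065 in HT3h_3 and 547215 in HT6h_3. These libraries also had the largest depth over fragments on genes, at 1.12 and 1.15, and a larger depth lowers that sum. Their part in the results was not tested, and the counts of calls against HT0h are given also over all 9 libraries and over the 9 without both.

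**Figure D1:**
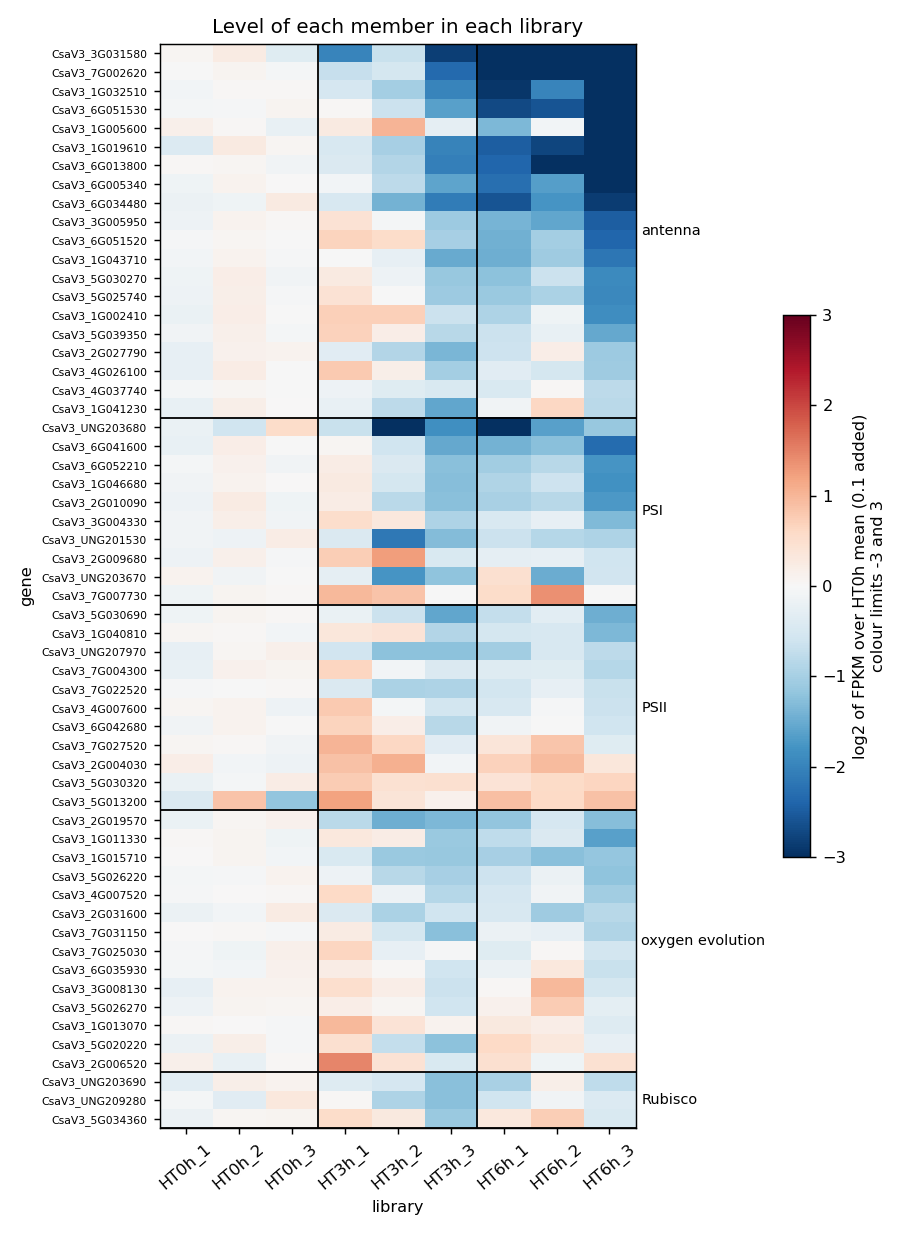
Level of the 58 tested genes (down the page, by class and within a class by the 6 h change) in the 9 libraries (across), as log2 of FPKM over the HT0h mean with 0.1 added, blue for lower and red for higher, with colours ending at -3 and 3. The upper antenna genes are the darkest blue in the HT6h libraries, and the HT3h_3 column is bluer than both other HT3h columns.

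At 6 h, 9 antenna genes and 2 low PsbP-family genes fell, and by value the antenna class lay lowest, though classes were not tested against each other. Of the 58 tested, 11 (19.0%) were called lower and 0 higher in HT6h against HT0h, where 22.3% of all genes were called, 10.0% lower and 12.2% higher. The share called lower was thus 45.0% in the antenna class and 14.3% in oxygen evolution. The 11 were 9 of 20 antenna genes and 2 of 14 oxygen evolution genes. The count over all 9 libraries was also 11, of which 9 were shared, beside 10.1% of all genes called lower. Over the 9 libraries without HT3h_3 and HT6h_3 it was 10, beside 11.9%, and 9 of these were among the 11. Without HT3h_1 the count was 23, beside 10.9% of all genes, and without HT3h_3 it was 22, beside 10.8%. Leaving out a HT3h library did not alter the 6 h changes themselves, which use no HT3h value. None of the PSI, PSII or Rubisco genes was called by limma on the 7 libraries. Among them, 5 of 10, 4 of 11 and 1 of 3 had an unadjusted p under 0.05, as 48.0% of all genes did. With limma-voom on recovered fragments, 15 antenna, 3 PSI, 2 oxygen evolution, 0 PSII and 0 Rubisco genes were called, all lower, beside 10.1% of all genes.

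The median log2 fold change at 6 h was -1.93 in the antenna class, -1.11 in PSI, -0.56 in PSII, -0.50 in oxygen evolution and -0.48 in Rubisco, and -0.00 over all genes. At 3 h the median was -0.78 in the antenna class, -0.50 in PSI, 0.12 in PSII, -0.28 in oxygen evolution and -0.58 in Rubisco, and -0.02 over all genes. These medians are over the tested members only. The Rubisco median was at both times the value of CsaV3_UNG209280, a large chain model with a mean of 15.4 FPKM. The Rubisco small chain, with a mean of 14283 FPKM, was at -0.28 at 3 h and -0.07 at 6 h. When only HT3h_3 and HT6h_3 were left out of the 9 libraries, the 6 h medians were smaller in size, at -1.25 in the antenna class, -0.75 in PSI, -0.26 in PSII, -0.19 in oxygen evolution and -0.32 in Rubisco. Without HT6h_3 of the 7 libraries, the 6 h median was -1.42 in the antenna class and -0.27 in oxygen evolution. The 3 h medians turned on single libraries. Without HT3h_1 the antenna median at 3 h was -1.44 and without HT3h_3 it was -0.05, and without HT3h_3 those of PSI (0.23), oxygen evolution (0.28) and Rubisco (0.07) were positive, while the PSII median was -0.54 without HT3h_1.

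**Figure D2:**
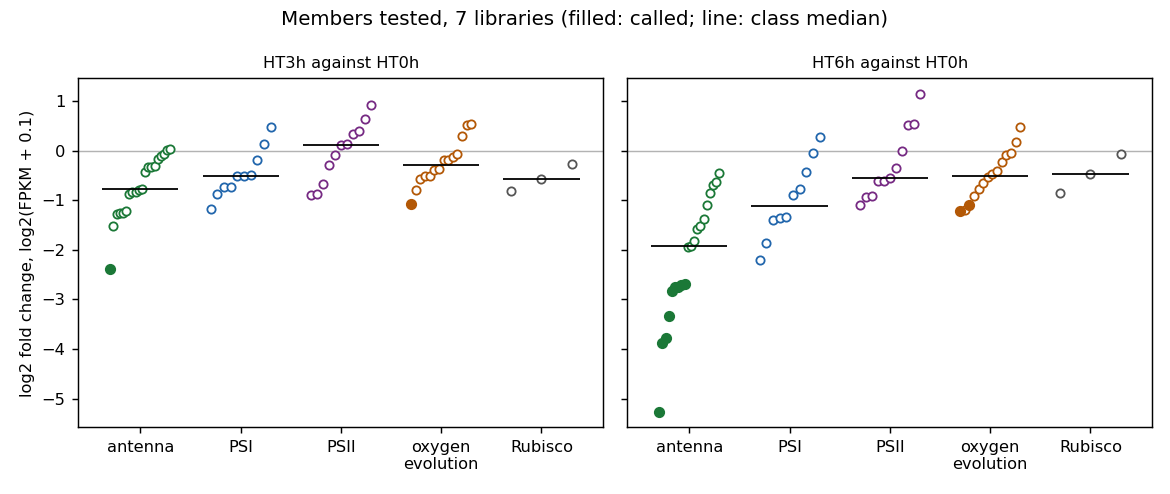
Log2 fold change of each tested gene on the log2(FPKM + 0.1) scale, HT3h against HT0h at left and HT6h against HT0h at right, by class, from 7 libraries. Filled points are the genes called, 2 at 3 h and 11 at 6 h, all below 0, and the line is the class median, which is lowest in the antenna class at both times.

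The summed level of each class was set out by library. These sums are in FPKM. Relative to shares of fragments, the larger depth over fragments on genes of the HT6h libraries lowers them too. On the FPKM scale the median ratio of all tested genes to the HT0h mean was 0.991, 0.982 and 0.983 in HT6h libraries 1 to 3. As a share of fragments on genes, the antenna class was also lower in every HT6h library than in every HT0h library. The antenna sum was 57580, 64751 and 59111 FPKM in the HT0h libraries, 66871, 52959 and 22769 in the HT3h libraries, and 19491, 24189 and 10556 in the HT6h libraries. All HT6h sums lay below all HT0h sums, and the HT3h sums were split, with HT3h_1 above the HT0h libraries and HT3h_3 near the HT6h libraries. Relative to the HT0h mean, the antenna sum at 6 h was 0.322, 0.400 and 0.175. The PSI sum was 0.515, 0.595 and 0.293, also below every HT0h library. The PSII sum was 0.998, 1.19 and 0.722, and the Rubisco sum was 1.24, 1.68 and 0.727, both spread to either side of 1. The oxygen evolution sum was 0.690, 0.893 and 0.455.

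**Figure D3:**
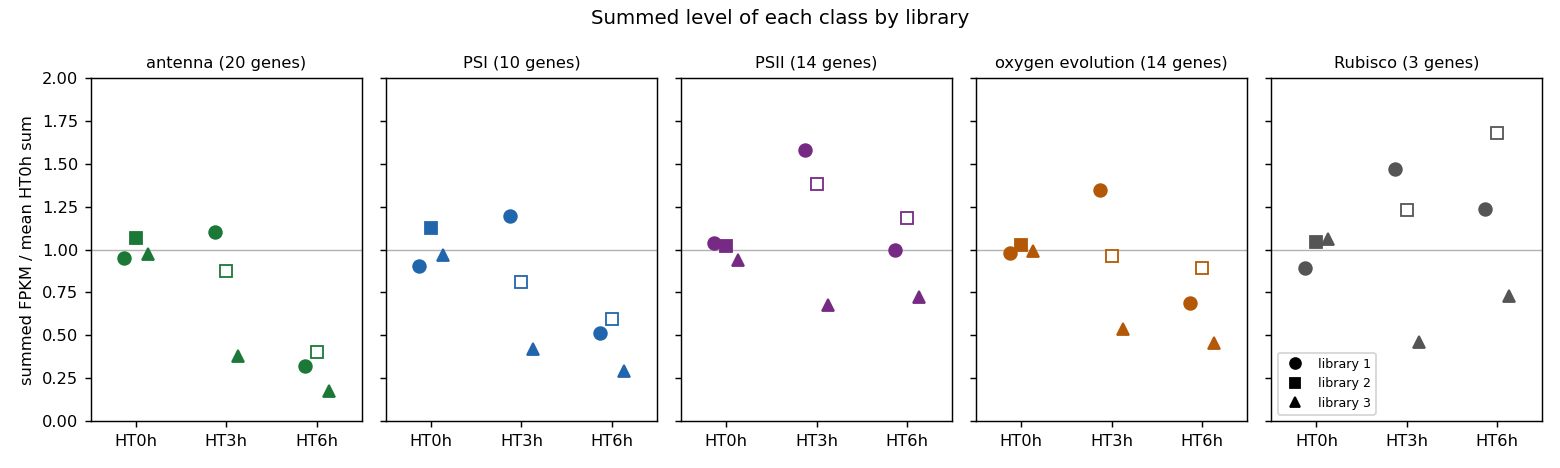
Summed FPKM of each class in each library divided by the mean of the HT0h libraries, for 5 classes, with times across. Circles, squares and triangles are libraries 1, 2 and 3, and open symbols are HT3h_2 and HT6h_2, which the 7-library tests leave out. At 6 h the antenna sums lie between 0.175 and 0.400 and the Rubisco sums between 0.727 and 1.68.

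A ratio of 2 classes within a library does not depend on the scaling of that library. The antenna sum over the PSII sum was 3.79, 4.32 and 4.29 in the HT0h libraries, 2.89, 2.62 and 2.29 in the HT3h libraries, and 1.33, 1.39 and 0.999 in the HT6h libraries, so that the 3 times did not overlap. HT3h_3 and HT6h_3 were again the lowest of their groups. The antenna sum over the Rubisco sum was 4.45, 4.26 and 3.83 in HT0h, 3.13, 2.96 and 3.40 in HT3h, and 1.08, 0.991 and 0.999 in HT6h, again with no overlap between times. The antenna sum over the PSI sum was 7.02, 6.35 and 6.73 in HT0h and 6.17, 7.22 and 5.96 in HT3h, which overlap, and 4.18, 4.49 and 3.98 in HT6h, below both. These sums are set mostly by their most abundant genes, and with 3 libraries against 3 an exact permutation test cannot go below p = 0.10, so no test is given.

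**Figure D4:**
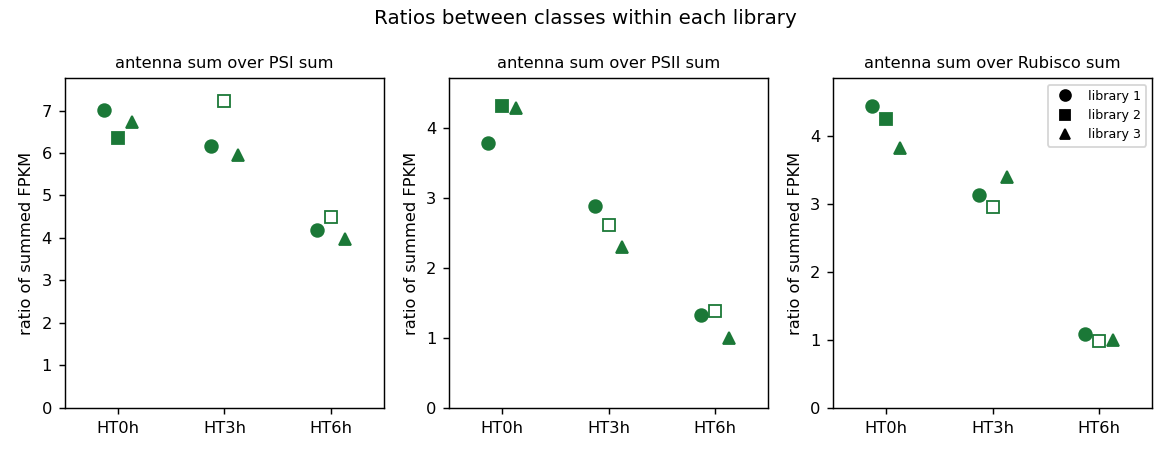
Ratio of summed FPKM between the antenna class and PSI, PSII or Rubisco (left to right) in each library, with times across, library numbers by symbol and open symbols for HT3h_2 and HT6h_2. The antenna to PSII ratio lies between 3.79 and 4.32 at 0 h, 2.29 and 2.89 at 3 h, and 0.999 and 1.39 at 6 h.

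Groups that did not overlap were counted in all 9 libraries. All HT6h libraries lay below all HT0h libraries in 35 of 58 members (60.3%), as they did in 27.2% of all genes, and above in 2 (3.45%), against 27.1% of all genes. By class, those below were 15 of 20 antenna, 8 of 10 PSI, 5 of 11 PSII, 7 of 14 oxygen evolution and 0 of 3 Rubisco genes. At 3 h, 19 of 58 were below, where 25.5% of all genes were, and 2 were above, where 26.0% of all genes were.

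Among the antenna genes, CsaV3_3G031580 (chromosome 3, 27304318 to 27305115, plus strand) changed most. It had 4081, 4601 and 3031 FPKM in HT0h, 997, 2458 and 547 in HT3h, and 188, 446 and 53.5 in HT6h. Every heated library was below every HT0h library, and every HT6h library was below every HT3h library. The log2 fold change was -2.38 (SE 0.58, limma adjusted p = 0.0196) at 3 h and -5.26 (SE 0.58, limma adjusted p = 9.28e-04) at 6 h. It was the only antenna gene called at 3 h over the 7 libraries, a call that held in 15 of 22 settings. That call was lost over all 9 libraries (limma adjusted p = 0.109), where CsaV3_6G034480 and CsaV3_1G019610 were the antenna genes called lower at 3 h. The 6 h call of CsaV3_3G031580 held in all 22 settings.

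CsaV3_7G002620 (chromosome 7, 2041428 to 2043365, plus strand) was the second. Its level was 3073, 3284 and 2995 FPKM in HT0h, 1936, 2153 and 615 in HT3h, and 337, 243 and 134 in HT6h, and the 3 times did not overlap. It fell by 3.87 on the log2 scale at 6 h (SE 0.60, limma adjusted p = 0.00317), a call made in all 22 settings. At 3 h its log2 fold change was -1.51 (SE 0.60, limma adjusted p = 0.0961).

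CsaV3_6G051530 had the highest mean level of the antenna class and the second of all genes. It had 9360, 9539 and 10235 FPKM in HT0h, 9954, 6238 and 3143 in HT3h, and 1483, 1620 and 625 in HT6h. The HT6h libraries were far below both other groups, and HT3h_1 was within the HT0h range. The log2 fold change at 6 h was -3.33 (SE 0.95, limma adjusted p = 0.0301), and with no mean-variance trend the SE was 0.57 and the adjusted p 0.00907. The call was made in 15 of 22 settings, with adjusted p between 0.00282 and 0.735, and was lost without any single HT0h or HT6h library of the 7. This gene (chromosome 6, 29986415 to 29987212, plus strand) lies 1193 bases from another antenna gene on the other strand, CsaV3_6G051520 (29983572 to 29985221, minus strand). That neighbour had 5597, 5981 and 5701 FPKM in HT0h, 9089, 8492 and 2909 in HT3h, and 2129, 2820 and 1101 in HT6h. HT3h_1 and HT3h_2 were above and HT6h libraries below every HT0h library, and its 6 h change of -1.91 (SE 0.87, limma adjusted p = 0.124) was not called. The treatment of fragments shared between similar antenna genes is not given in the sources used here, so that levels of single near-identical genes are uncertain.

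**Figure D5:**
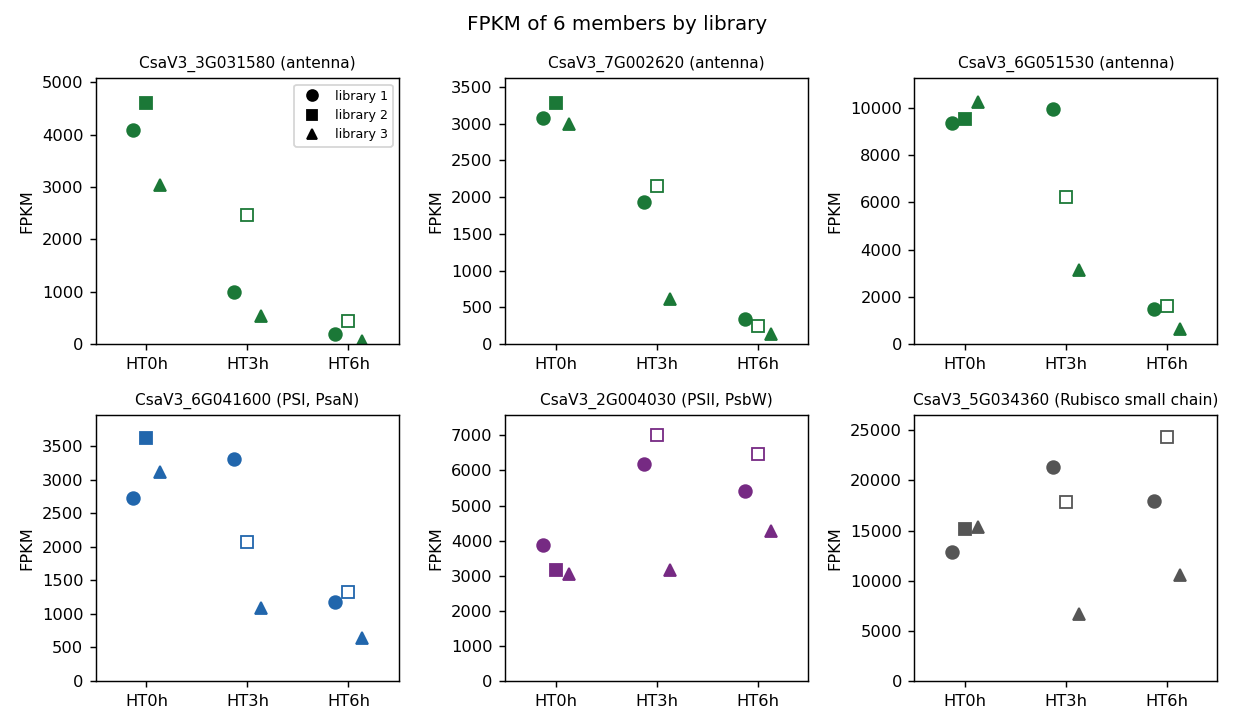
FPKM of 6 genes in each library on linear axes starting at 0, with times across, library numbers by symbol and open symbols for HT3h_2 and HT6h_2. The 3 antenna genes and PsaN are lowest at 6 h, PsbW at 6 h (4260 to 6483) lies above its HT0h libraries (3040 to 3883), and the Rubisco small chain spreads from 10536 to 24366 at 6 h.

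The other 6 antenna genes called at 6 h ranged in level from CsaV3_6G013800 to the rare CsaV3_1G019610. CsaV3_6G013800 had 7574, 7740 and 6947 FPKM in HT0h, 5451, 4018 and 1793 in HT3h, and 1435, 936 and 849 in HT6h, so that the 3 times did not overlap. Its log2 fold change was -2.75 (SE 0.80, limma adjusted p = 0.0329) and was called in 15 of 22 settings, with adjusted p between 0.00223 and 0.625. CsaV3_1G032510 had 3105, 3386 and 3375 FPKM in HT0h, 2322, 1629 and 828 in HT3h, and 437, 839 and 133 in HT6h. Every heated library was below every HT0h library, and HT6h_2 was just above HT3h_3. It fell by 3.77 on the log2 scale (SE 0.65, limma adjusted p = 0.00463), a call lost only without HT6h_3.

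CsaV3_6G005340 had 1265, 1505 and 1394 FPKM in HT0h, 1312, 800 and 462 in HT3h, and 290, 441 and 153 in HT6h, and its 6 h log2 fold change was -2.72 (SE 0.50, limma adjusted p = 0.00581). CsaV3_6G034480 had 613, 638 and 831 FPKM in HT0h, 500, 260 and 163 in HT3h, and 116, 203 and 96.7 in HT6h, with a 6 h change of -2.70 (SE 0.44, limma adjusted p = 0.0039). Both were below their HT0h range in every HT6h library, the first losing its call without HT6h_3 alone (adjusted p = 0.0565) and the second being called in all 22 settings. CsaV3_1G019610, at 32.5, 52.3 and 44.9 FPKM in HT0h, 30.9, 21.7 and 10.6 in HT3h, and 7.68, 6.37 and 5.02 in HT6h, was also called in all 22 settings (-2.75, SE 0.44).

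CsaV3_1G005600 was the least even of the 9. It had 37.5, 34.7 and 28.7 FPKM in HT0h, 40.8, 68.8 and 27.7 in HT3h, and 13.2, 31.8 and 1.56 in HT6h. HT6h_2 lay within the HT0h range and HT6h_3 far below the rest, and the call (-2.83, SE 0.75, limma adjusted p = 0.0234) was lost over all 9 libraries, and its adjusted p over the 22 settings lay between 0.00159 and 0.194.

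The antenna genes that were not called at 6 h had log2 fold changes between -1.94 and -0.44, all negative. The second antenna gene by mean level, CsaV3_5G039350, had 5847, 6984 and 6088 FPKM in HT0h, 10248, 7207 and 3521 in HT3h, and 4021, 5392 and 2185 in HT6h. Its HT6h libraries were all below HT0h, yet the difference (-1.08, SE 0.99, limma adjusted p = 0.424) was small beside the spread within the heated groups. CsaV3_3G005950 was just outside the threshold, with 2626, 3108 and 2976 FPKM in HT0h, 3939, 2777 and 1367 in HT3h, and 1100, 983 and 519 in HT6h (-1.94, SE 0.64, limma adjusted p = 0.0501). It was called lower in 11 of 22 settings, among them all 9 libraries (-1.81, limma adjusted p = 0.0377). CsaV3_1G043710 was called in 6 settings, CsaV3_6G051520 and CsaV3_5G030270 in 5 each, CsaV3_5G025740 in 4 and CsaV3_1G002410 in 2. The rest were called in no setting. CsaV3_1G041230 differed least, with 152, 201 and 178 FPKM in HT0h, 152, 104 and 60.1 in HT3h, and 165, 271 and 101 in HT6h, where HT6h_2 was above and HT6h_3 below the HT0h libraries.

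Of the PSI genes, the 3 with the highest levels were PsaN, the subunit III gene and a psaG/psaK gene. PsaN, a lumen subunit of PSI (CsaV3_6G041600, chromosome 6, 24200252 to 24201299, plus strand), had 2725, 3628 and 3116 FPKM in HT0h, 3308, 2075 and 1093 in HT3h, and 1172, 1332 and 636 in HT6h. The HT6h libraries were all below HT0h, and the change of -1.86 (SE 0.64, limma adjusted p = 0.0572) was not called as tested here but passed the thresholds in 9 of 22 settings, among them the 7 libraries with no mean-variance trend (adjusted p = 0.0374). Subunit III, which docks plastocyanin (PsaF, CsaV3_1G046680), had 1907, 2190 and 2051 FPKM in HT0h, 2469, 1412 and 850 in HT3h, and 1101, 1331 and 581 in HT6h, with a 6 h change of -1.36 (SE 0.58, limma adjusted p = 0.105).

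The psaG/psaK gene CsaV3_3G004330 had 1217, 1474 and 1219 FPKM in HT0h, 1891, 1624 and 681 in HT3h, and 954, 1096 and 518 in HT6h, a change of -0.88 (SE 0.53). The other gene of that description, CsaV3_6G052210, had 891, 1009 and 863 FPKM in HT0h, 1081, 680 and 387 in HT3h, and 445, 515 and 272 in HT6h. Its 6 h change was -1.40 (SE 0.47, limma adjusted p = 0.0507), and it was called over all 9 libraries. PsaE, a stromal subunit beside the ferredoxin site (CsaV3_2G010090), changed by -1.33 (SE 0.50, limma adjusted p = 0.0755). These PSI genes had all HT6h libraries below all HT0h libraries and a HT3h_1 library at or above the HT0h mean.

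Subunit XI and the second PsaN gene were higher at 3 h by value in HT3h_1 and HT3h_2. The psaA/psaB models, at low levels and described below, went the other way, with every HT3h library below every HT0h library. Subunit XI (PsaL, CsaV3_2G009680), which joins PSI units into trimers in cyanobacteria, had 262, 327 and 287 FPKM in HT0h, 488, 700 and 212 in HT3h, and 244, 244 and 192 in HT6h. It was called higher at 3 h only when HT3h_3 and HT6h_3 were left out of the 9 libraries. The second PsaN gene, CsaV3_7G007730, was less abundant, with 55.9, 64.8 and 62.4 FPKM in HT0h, 121, 110 and 60.6 in HT3h, and 90.0, 159 and 60.7 in HT6h. Its log2 fold changes of 0.49 at 3 h and 0.28 at 6 h were not called.

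Of the PSII genes, PsbW, a small subunit of the complex (CsaV3_2G004030, chromosome 2, 2090049 to 2091045, plus strand), was the most abundant. It had 3883, 3174 and 3040 FPKM in HT0h, 6188, 7017 and 3165 in HT3h, and 5400, 6483 and 4260 in HT6h. All HT6h libraries were above all HT0h libraries, and the difference (0.52, SE 0.81, limma adjusted p = 0.644) did not pass the test. The other PsbW gene, CsaV3_7G027520, had 1307, 1281 and 1164 FPKM in HT0h, 2532, 1927 and 987 in HT3h, and 1598, 2243 and 976 in HT6h, with the third library below and the others above HT0h at both heated times.

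PsbX, another small subunit (CsaV3_1G040810), went the other way by value, with 4099, 4022 and 3715 FPKM in HT0h, 4969, 5209 and 2130 in HT3h, and 2748, 2817 and 1545 in HT6h (-0.94, SE 0.73, limma adjusted p = 0.35). PsbO, the manganese-stabilising protein that the words placed in PSII (CsaV3_6G042680), had 2479, 2854 and 2656 FPKM in HT0h, 4208, 3048 and 1495 in HT3h, and 2471, 2657 and 1770 in HT6h, with overlapping groups. PsbR (CsaV3_4G007600) also overlapped, with 2521, 2591 and 2169 FPKM in HT0h, 4216, 2316 and 1664 in HT3h, and 1738, 2351 and 1557 in HT6h. The gene described by PsbY and a methyltransferase domain, CsaV3_5G030690, was below HT0h in every HT6h library, at 385, 508 and 227 FPKM against 579, 670 and 641 FPKM in HT0h (-1.09, SE 0.43, limma adjusted p = 0.0838).

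A pair of genes carries the family name of Psb27, an assembly factor of PSII (spelled Pbs27 in the descriptions). CsaV3_7G022520 had 61.6, 76.0 and 57.2 FPKM in HT6h against 88.5, 90.0 and 92.9 FPKM in HT0h (-0.61, SE 0.17, limma adjusted p = 0.0262), under the fold threshold. CsaV3_7G004300 had 192, 195 and 140 FPKM in HT6h against 214, 274 and 266 FPKM in HT0h (-0.61, SE 0.33, limma adjusted p = 0.19). Every HT6h library was below every HT0h library in both genes. The gene model that joins an ELMO/CED-12 domain with a PSII protein domain, CsaV3_5G030320, was above HT0h in every heated library. It had 19.6, 21.7 and 26.6 FPKM in HT0h, 38.7, 31.2 and 31.9 in HT3h, and 30.3, 33.5 and 35.6 in HT6h (0.55, SE 0.17, limma adjusted p = 0.0433 at 6 h), also under the fold threshold. Its PSII protein description is shared with a plastid-type model described below. Which part of the joined model the fragments came from was not tested.

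The oxygen evolution genes held 2 abundant members and 12 at lower levels. PsbP-family gene CsaV3_4G007520 had 1691, 1763 and 1780 FPKM in HT0h, 2658, 1565 and 968 in HT3h, and 1228, 1622 and 852 in HT6h. PsbQ gene CsaV3_1G011330 had 1296, 1341 and 1152 FPKM in HT0h, 1576, 1468 and 581 in HT3h, and 743, 937 and 409 in HT6h. The HT6h libraries of both were below HT0h. Neither passed the test at 6 h, with -0.77 (SE 0.54) for the PsbP-family gene and -1.19 (SE 0.50) for the PsbQ gene.

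The members of this class that were called were low PsbP-family genes. CsaV3_2G019570 (chromosome 2, 15541927 to 15546759, minus strand) had 44.0, 52.7 and 55.9 FPKM in HT0h, 29.0, 18.4 and 19.9 in HT3h, and 22.5, 35.6 and 20.8 in HT6h. All heated libraries were below all HT0h libraries, and its change was -1.07 (SE 0.19, limma adjusted p = 0.00604) at 3 h and -1.22 (SE 0.19, limma adjusted p = 0.00311) at 6 h. The 3 h call was lost without HT3h_3 (-0.80). The 6 h call was lost over all 9 libraries, where HT6h_2 was the highest heated library, since the change then fell under the fold threshold, and the change ranged from -1.32 to -0.84 over the 22 settings. CsaV3_1G015710 had 53.0, 56.1 and 49.7 FPKM in HT0h, 38.4, 24.5 and 24.0 in HT3h, and 26.3, 22.0 and 23.5 in HT6h, with no overlap between heated and unheated leaves (-1.09, SE 0.20, limma adjusted p = 0.00612 at 6 h). The third gene by level, CsaV3_5G026220, had 128, 132 and 144 FPKM in HT0h, 120, 75.4 and 67.5 in HT3h, and 87.5, 120 and 58.3 in HT6h (-0.91, SE 0.27, limma adjusted p = 0.0367), under the fold threshold. PsbP-like relatives have roles other than water oxidation in Arabidopsis, and the descriptions do not tell them apart.

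The nuclear Rubisco small chain, CsaV3_5G034360 (chromosome 5, 27339882 to 27341598, plus strand), had the highest mean FPKM of all genes. It had 12904, 15175 and 15395 FPKM in HT0h, 21310, 17889 and 6684 in HT3h, and 17976, 24366 and 10536 in HT6h. At each heated time libraries 1 and 2 were above and library 3 below every HT0h library. The fold changes were -0.28 (SE 1.90) at 3 h and -0.07 (SE 1.90, limma adjusted p = 0.982) at 6 h, and with no mean-variance trend the 6 h SE was 0.51. With such errors a change of 1 on the log2 scale was not detectable for this gene.

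Plastid-type genes were found on 1 unplaced sequence, scaffold18_1, which holds 312 of the genes in the tables and 6 of the members. These were 3 psaA/psaB gene models, 2 Rubisco large chain models and 1 PSII protein model, which plants encode in the plastid, and their mean levels were between 0.582 and 17.7 FPKM. Members on chromosome 5 also carried the description of that PSII protein model (CsaV3_5G030320, CsaV3_5G013200 and CsaV3_5G028980). All 3 psaA/psaB models and the PSII model CsaV3_UNG207970 were below HT0h in every HT3h library. At 6 h the psaA/psaB model CsaV3_UNG203670 overlapped HT0h and the rest of these were below. Over all 9 libraries, CsaV3_UNG201530 (-1.285, limma adjusted p = 0.0288) and CsaV3_UNG207970 (-1.002, limma adjusted p = 0.0216) were called lower at 3 h. Neither was called over the 7 libraries. The Rubisco large chain model CsaV3_UNG203690 had 18.7, 26.6 and 25.2 FPKM in HT0h, 17.9, 16.7 and 9.75 in HT3h, and 12.0, 26.6 and 13.8 in HT6h. The other one, CsaV3_UNG209280, had 17.7, 14.5 and 23.1 FPKM in HT0h, 19.0, 9.66 and 7.73 in HT3h, and 12.2, 17.2 and 13.9 in HT6h. The groups overlapped at 6 h in both, and whether these fragments came from plastid messages or from copies of plastid sequence in the nucleus was not tested.

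At 3 h only 2 of 58 members (3.45%) were called, both lower, where 18.3% of all genes were called, 8.29% lower and 10.0% higher. They were CsaV3_3G031580 and CsaV3_2G019570. Over all 9 libraries 5 were called lower, beside 9.57% of all genes, and only 1 of them, CsaV3_2G019570, was among these 2. The others were the antenna genes CsaV3_6G034480 and CsaV3_1G019610 and the plastid-type models CsaV3_UNG201530 and CsaV3_UNG207970. Over the 9 libraries without HT3h_3 and HT6h_3, 1 was higher and 1 lower, beside 24.9% of all genes called. Without HT3h_1, the higher of the 2 libraries in this comparison, 16 members were called lower, beside 7.64% of all genes. Without HT3h_3 only CsaV3_2G006520, a rare PsbP-family gene, was called, and it was higher, as were 9.96% of all genes. Without HT0h_1 or without HT0h_2, 1 member was called, a count that stands without the share of all genes. Between HT6h and HT3h, limma called 0 members, where 0.201% of all genes were called, with 9 members at an unadjusted p under 0.05, 8 of them antenna genes, beside 12.3% of all genes. Limma-voom also called 0, where it called 0.577% of all genes, and 6 members were called lower with array weights over all 9 libraries, beside 1.03% of all genes.

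Other genes of photosynthesis were counted by word lists, leaving out the members. In HT6h against HT0h, 11 of 150 tested genes of these lists were called higher and 26 (17.3%) lower, beside 12.2% of all genes higher and 10.0% lower. Of the 11 genes for chlorophyll synthesis, 0 were higher and 3 lower, namely uroporphyrinogen decarboxylase (CsaV3_5G010770, -1.42, limma adjusted p = 0.0142), the gene described as CobN/magnesium chelatase, the step that commits protoporphyrin to chlorophyll (CsaV3_4G011730, -3.16, limma adjusted p = 0.00456), and glutamyl-tRNA reductase, which opens the pathway (CsaV3_2G030530, -2.24, limma adjusted p = 0.00782). The magnesium chelatase gene had 329, 414 and 442 FPKM in HT0h, 357, 207 and 102 in HT3h, and 65.0, 47.2 and 29.3 in HT6h, with library 3 lowest at both heated times. Of 11 genes for chlorophyll breakdown, 2 were higher and 1 lower at 6 h. A chlorophyllase gene (CsaV3_2G013640) had 9.51, 34.0 and 4.52 FPKM in HT6h against 0.679, 0.0398 and 0 FPKM in HT0h (4.91, SE 0.87, limma adjusted p = 0.00509), and the Staygreen gene (CsaV3_6G031220), an initiator of chlorophyll loss in plants, had 43.3, 52.5 and 34.1 FPKM in HT6h against 140, 146 and 141 FPKM in HT0h (-1.89, SE 0.28, limma adjusted p = 0.00268).

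On the carbon fixation list, which leaves out Rubisco, 3 of 53 genes were higher and 8 (15.1%) lower at 6 h. The shares of all genes were the same 12.2% and 10.0%. CsaV3_5G002000, among those called higher (1.88), is described only as phosphoribulokinase / uridine kinase family. The list was drawn by family words and also takes genes with other roles, such as 2-oxoglutarate dehydrogenase and uracil phosphoribosyltransferase. The most abundant, with a CP12 domain (CsaV3_7G029960), a small protein that binds Calvin cycle enzymes, had 2127, 1963 and 2104 FPKM in HT6h against 931, 746 and 664 FPKM in HT0h (1.45, SE 0.40, limma adjusted p = 0.0274). The deepest decrease was in a glyceraldehyde 3-phosphate dehydrogenase gene (CsaV3_1G009420, -2.41, limma adjusted p = 5.32e-04), and the descriptions do not separate plastid from cytosolic forms. The photoprotection list had 0 higher and 4 lower of 8, among them 3 described as squalene/phytoene synthase (the deepest CsaV3_5G020340, -3.53), a family that holds the first enzymes of both carotenoid and sterol synthesis. The photorespiration list had 3 higher and 6 lower of 22, and the electron transport list, which takes many plastocyanin-like proteins outside the thylakoid, 3 higher and 4 lower of 50, which is below the share of all genes in both directions. Its plastocyanin gene (CsaV3_3G046150), the carrier to PSI, had 2381, 3055 and 1394 FPKM in HT6h against 1638, 1677 and 1858 FPKM in HT0h (0.08, limma adjusted p = 0.933).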

How the data were processed

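FPKM values, as the authors deposited them in a table for each library, came with gene lengths, positions and descriptions. CASAVA 1.8, HISAT2 2.0.5, StringTie 1.3.3b and featureCounts 1.5.0-p3 are named in the submitters' processing notes. Strandedness, the treatment of multi-mapping fragments and any pooling of plants were not given in the sources used, so p-values measure the spread between these libraries. FPKM times length fell on whole fragments (100% within 0.02). These fragments gave the shares of fragments on genes, the voom alternative, the scaling per total fragments and the means of the simulated data. The main test used FPKM.

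The 7 libraries, with the 3 times in 1 model and no covariates, were tested on log2(FPKM + 0.1) with a mean-variance trend (limma 3.58.1, R 4.3.3). The script was also run on data simulated with the same spread in every library. That run does not bear on calls from heated libraries, which varied more than the HT0h libraries. Classes and lists were described by counts, sums and medians, without set tests. Members and lists were chosen with earlier results of these data known. Values in full were given for the 3 members of each class with the highest mean, the 2 members called at 6 h with the largest change each way, and any called member against its class; other members were named after their values were seen. From each pathway list, the most abundant gene and called genes with the largest change were eligible. A list for the NADH dehydrogenase-like complex and ATP synthase matched 0 genes, and some genes stand in more than 1 list. The alternatives were other library sets, pseudocounts, filters, scalings and weights, a replicate block, and leaving out each library.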

Additional observations from a re-analysis of the deposited data

How the results depend on the processing

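The direction of the 6 h calls was the same in all 22 settings, with 0 members called higher in each. The number called at 6 h, 11 over the 7 libraries, was 21 with array weights over all 9 libraries and 20 with limma-voom on fragments, and it ranged from 8 to 23 when single libraries were left out, with 23 without HT3h_1 and 22 without HT3h_3. At 3 h the number, 2 over the 7 libraries, was 5 over all 9 libraries, 1 with no filter on low values, and ranged from 1 to 16 without single libraries. Between HT6h and HT3h it was 0 in every setting except array weights, which gave 6. Where no share of all genes is printed above for a setting, its count is not read as a result about the members. Where a library of a heated group was left out, the lone library left was assumed to vary like the other groups. A 6 h change against HT0h uses no HT3h value. Leaving out a HT3h library therefore moved only the pooled spread and the genes passing the filter, not that change. The cause of the other differences was not tested. Scaling per total fragments moved the median of all genes by 0.19 at 6 h and left 13 members called lower.

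With the replicate number as a block, 2 members were called at 3 h and 9 at 6 h over 7 libraries, and 7 and 13 over 9 libraries. The shares of all genes were not set beside these counts, so they describe the settings only. Deviations of same-numbered libraries correlated between -0.23 and 0.48. The highest were HT3h_3 with HT6h_3 (0.48) and HT3h_2 with HT6h_2 (0.31). The crossed pairs HT3h_2 with HT6h_3 (-0.39) and HT3h_3 with HT6h_2 (-0.37) were negative. HT3h_1 with HT6h_1 was at 0.04, and same-numbered pairs with a HT0h library lay between -0.23 and 0.03. Not every library correlated best with its own number, so the numbers were not taken to pair the libraries. The 2 libraries per heated group in the 7 limit the precision. The alternative without HT3h_3 and HT6h_3 was chosen after seeing the data.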
